A study of Mus musculus with 7 samples.

Results

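The 36 genes described here act in G2 and mitosis, the stretch of the cell cycle in which a cell with replicated DNA builds a spindle, separates its chromosomes and divides. They were listed by symbol as cyclins, kinases, checkpoint proteins, motors and structural proteins of cell division. All 36 were found, once each, among the 20464 rows of a table of gene expression. The table holds RNA sequencing of EML cells, a mouse haematopoietic progenitor line that depends on stem cell factor and can give rise to erythroid, myeloid and lymphoid cells. Cells binding Annexin V, a stain for dying cells, were removed, and the live cells were sorted by the surface sialomucin CD34 into a CD34-negative group (4 libraries) and a CD34-positive group (3 libraries). No treatment, drug or time course separates the groups, and all libraries come from cells of one established line, so the replicates are not animals. The labels also carry the strain C57BL/6, a bone marrow tissue and a postnatal age, while their source names the cell line. In the negative libraries the genotype label names CD43 rather than CD34, and groups were taken from the titles. The titles number the replicates and the descriptions carry numbers of their own, which are 3 for replicate 1, 2 for replicate 2 and 4 for replicate 3 in both groups. CD34-negative replicate 4 is described as 4a and is counted with number 4. What these numbers stand for is not given in the sources used here.

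Entry into mitosis is driven by the kinase Cdk1 bound to cyclin A or cyclin B, which is held inactive by phosphorylation until Cdc25 phosphatases remove the block. The spindle checkpoint then delays chromosome separation until all kinetochores are attached, after which the anaphase-promoting complex with Cdc20 marks cyclin B for destruction. Most of these genes are transcribed late in the cycle, so their level in a cell population follows how many cells are in G2 and mitosis. Progenitor cells that leave self-renewal can go on dividing for several rounds, and early erythroid cells are among the fast dividing cells of the blood system.

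Late cell cycle genes commonly share promoter elements: the cell cycle genes homology region (CHR, read here as TTTGAA or TTCGAA), the site of MuvB complexes, and the CCAAT box, the site of the factor NF-Y. Promoter sequences of 300 bases, from 250 before to 50 after the start of the gene, were matched by symbol to 30 of the 36 genes in a RefSeq table (build GRCm38.p6). On either strand, 23 of 30 (76.7%) held a CHR, against 19.4% of the 27025 genes in that table. A CCAAT box was present in 23 of 30 (76.7%), against 37.9%, and 20 of 30 (66.7%) held both elements, against 7.7%. At least 2 CCAAT boxes were found in 16 of 30 (53.3%), against 12.2%. The CHR and CCAAT searches do not overlap in their letters, and a match is a description, not a binding site. The 7 genes on which the results below turn are shown from 100 bases before to 20 bases after the start, 5′ to 3′ in the sense of the gene, with CHR and CCAAT matches of either strand in capitals.
Cdc25b (chr2:131186848-131186967, plus strand): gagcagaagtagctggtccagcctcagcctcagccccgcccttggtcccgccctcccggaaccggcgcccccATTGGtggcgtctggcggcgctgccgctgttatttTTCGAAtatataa
Ccnb1 (chr13:100786467-100786586, minus strand): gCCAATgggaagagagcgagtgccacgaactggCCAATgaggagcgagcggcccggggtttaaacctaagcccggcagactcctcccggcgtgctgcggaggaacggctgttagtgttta
Cdk1 (chr10:69352893-69353012, minus strand): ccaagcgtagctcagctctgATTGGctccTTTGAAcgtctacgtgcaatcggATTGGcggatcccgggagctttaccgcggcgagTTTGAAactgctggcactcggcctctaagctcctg
Cdc20 (chr4:118437324-118437443, minus strand): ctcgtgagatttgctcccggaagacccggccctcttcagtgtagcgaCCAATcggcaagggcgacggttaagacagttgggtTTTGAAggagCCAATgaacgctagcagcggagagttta
Prc1 (chr7:80294351-80294470, plus strand): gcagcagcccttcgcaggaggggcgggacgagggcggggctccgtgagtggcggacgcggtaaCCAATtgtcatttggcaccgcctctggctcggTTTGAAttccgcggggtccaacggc
Top2a (chr11:99024170-99024289, minus strand): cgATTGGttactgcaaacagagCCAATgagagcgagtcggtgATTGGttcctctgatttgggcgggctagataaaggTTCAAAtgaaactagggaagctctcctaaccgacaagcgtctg
Mki67 (chr7:135716360-135716479, minus strand): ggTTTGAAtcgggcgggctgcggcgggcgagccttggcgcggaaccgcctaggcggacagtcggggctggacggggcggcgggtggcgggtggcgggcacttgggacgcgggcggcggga
Within this stretch Ccnb1 held 2 CCAAT boxes and no CHR, Mki67 held a CHR and no CCAAT box, and the other 5 held at least 1 of each. Cdc25b, the gene that differs most between the CD34 groups below, carries both elements like most of the list.

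Values are FPKM, in which the fragments of a gene are divided by its transcript length and by the mapped total of the library, so that levels can be compared between genes. Fragment totals are not in the table, so no counting interval is given. The libraries had 8606 to 9117 genes at 1 FPKM or more. Ribosomal protein genes took 27.8% to 37.3% of all FPKM in the libraries numbered 2 and 3 but 2.32% to 4.24% in those numbered 4, and the number-4 libraries held 8.0% to 39.5% in small RNA genes against at most 0.301% in the others. The number-4 libraries thus stand apart in both CD34 groups, and results are given with and without them. Cd34, the sorted marker, had a mean of 186 FPKM (SD 61.1, n = 3) where CD34 was selected for and of 29.95 FPKM (SD 41.9, n = 4) where it was selected against. In CD34-negative replicate 1 it stood at 91.8 FPKM, against 147 FPKM in the CD34-positive library of the same number, so that pair was separated least. Kit, the stem cell factor receptor that marks the line, was present at 44.7 to 522 FPKM. Of 17 lymphoid markers 12 stayed under 1 FPKM in every library, as did 9 of 11 stromal and endothelial and 7 of 9 hepatocyte markers, Alb and Afp among them. Other markers of these lists were present. Pecam1 and Pdgfrb, of the stromal and endothelial list, stood at 36.4 to 96.6 and 16.6 to 62.9 FPKM. The hepatocyte marker Trf was at 35.1 to 197 FPKM and the lymphoid marker Cd7 at 1.83 to 35.0 FPKM.

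All 36 mitotic genes were expressed in all 7 libraries. The lowest single value was 4.64 FPKM, for Cenpf in CD34-negative replicate 2, and the highest was 153 FPKM, for Top2a in CD34-negative replicate 4. Averaged over the 7 libraries, Top2a, the topoisomerase that untangles sister chromatids, was highest at 111 FPKM. Ube2c, the ubiquitin-conjugating enzyme of the anaphase-promoting complex, followed at 86.1 FPKM and Birc5 (survivin, of the chromosomal passenger complex) at 72.9 FPKM. The lowest were Cdc25c at 6.52 FPKM, the checkpoint kinase Ttk at 8.11 FPKM and the cytokinesis scaffold Anln at 8.77 FPKM. The order was not fixed. Top2a was the most abundant of the 36 in 5 libraries, Ube2c in CD34-negative replicate 2 and Birc5 in CD34-positive replicate 2. The median of the 36 genes lay between 19.7 FPKM (CD34-negative replicate 1) and 29.1 FPKM (CD34-negative replicate 4), and the 3 CD34-positive libraries, at 22.5, 26.6 and 27.1 FPKM, fell inside that range.

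**Figure D1:**
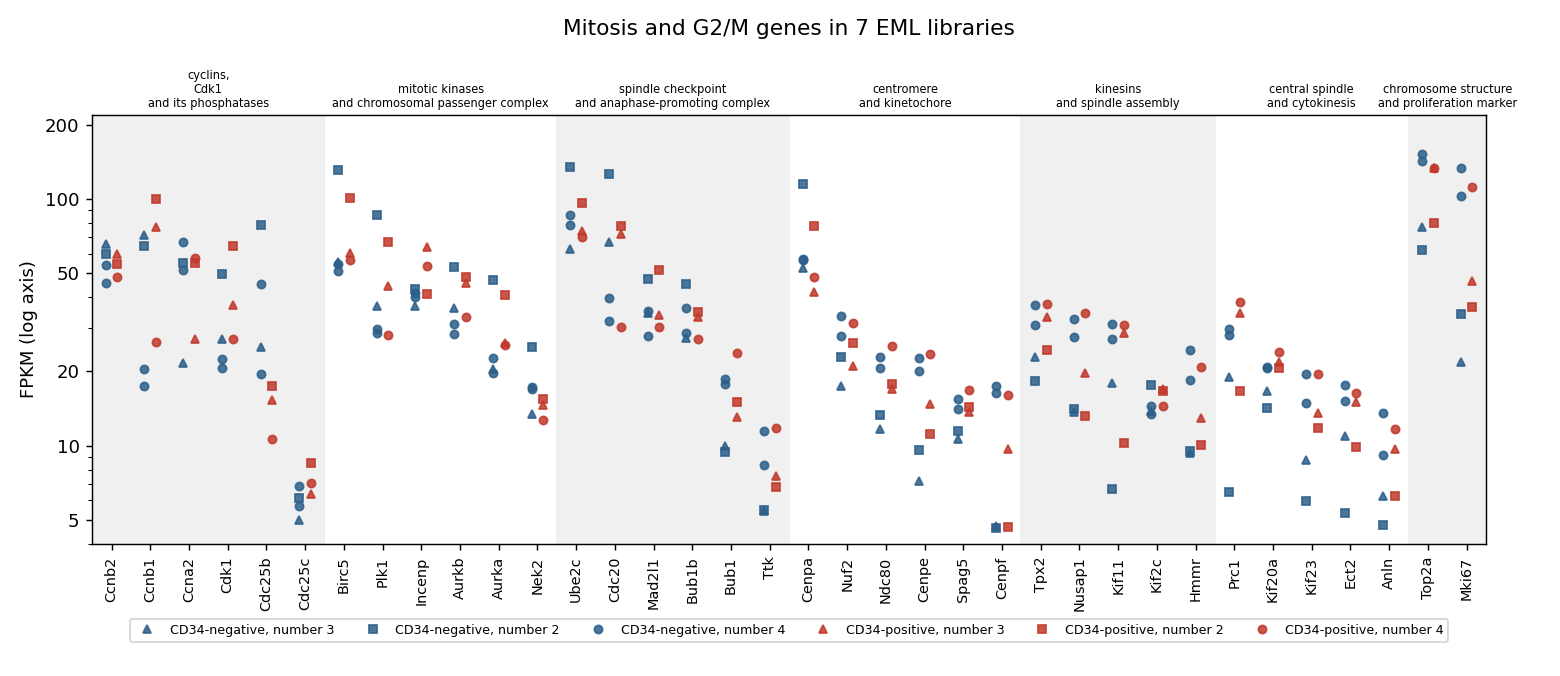
FPKM (log axis) of each of the 36 genes, grouped by role and ordered by mean within a role. Blue points are the 4 CD34-negative and red points the 3 CD34-positive libraries, and the marker shape gives the description number; the colours overlap for every gene but Cdc25b, while the number-4 circles sit apart for genes such as Ccnb1 and Mki67.

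Whether cells with and without CD34 differ in their mitotic genes was asked first with all libraries. No mitotic gene was shown to differ between them. None of the 36 passed an adjusted p of 0.05 in limma, either as higher or as lower in CD34-positive cells, and 0 of all 9259 tested genes did (0% in each direction). The smallest adjusted p among the 36 was 0.735, and 1 gene, Cdc25b, was under an unadjusted p of 0.05. The background at that unadjusted level was 3.38% of genes higher and 2.27% lower. The median log2 difference of the 36 genes, CD34-positive minus CD34-negative on the log2(FPKM + 1) scale, was 0.16, beside 0.09 over all tested genes. With other scalings the median was 0.03 to 0.23, and it fell to 0.07 when CD34-negative replicate 2 was left out and to 0.06 when CD34-negative replicate 1 or CD34-positive replicate 3 was. The difference was above 0 in 27 of the 36 (75%), beside 62.1% of all tested genes. Under the other scalings tried it was above 0 in 19 to 31 of the 36. In 32 of 36 (88.9%) the difference was smaller than 0.5 either way, beside 79.8% of all genes. The groups overlapped in 35 of the 36, the exception being Cdc25b. Of all genes, 2.67% had groups apart with CD34-positive higher and 3.01% with CD34-positive lower. The test could not have shown small differences, since the standard errors ran from 0.25 to 0.70 with a median of 0.40.

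Comparing libraries of equal number narrows the error, because such libraries resemble each other. With the description number as a replicate block the median standard error of the 36 genes fell to 0.16. Still none passed in limma (smallest adjusted p = 0.0951, for Prc1). Under an unadjusted p of 0.05 there were then 8 of 36 higher (22.2%) and 2 lower (5.56%), beside backgrounds of 12.8% and 9.14% of all genes. The 8 were Ccnb1, Cdk1, Bub1, Ndc80, Kif11, Kif20a, Kif23 and Prc1, and the 2 were Cdc25b and Cenpa. The 8 fell to 3 without either number-3 library and to 2 without either number-2 library, and were 5 without CD34-positive replicate 3. The share of all genes at that unadjusted level was not taken in these smaller fits. The fall therefore cannot be read as particular to the mitotic genes. The median difference of the 36 genes was 0.25 with the block, beside 0.04 for all genes, and 0.08 without either number-3 library. 11 genes were higher in CD34-positive cells in all 4 equal-number comparisons (30.6%, background 21.4%) and 2 were lower (5.56%, background 18.9%). The 2 comparisons within number 4 share their CD34-positive library.

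The pairs did not contribute equally. In number 3, 32 of 36 genes (88.9%, background 50.8%) were higher in the CD34-positive library. The median difference there was 0.34, beside 0.00 for all tested genes. In number 2, 22 were higher (61.1%, background 58.9%) with a median of 0.10, beside 0.13 for all genes. In number 4, 25 were higher against CD34-negative replicate 3 (69.4%, background 49.6%), with a median of 0.16. Against CD34-negative replicate 4, 18 were higher (50%, background 48.5%), with a median of 0.00. The number-3 pair, which had the highest median, is the pair with the smallest Cd34 difference, 0.68 on the log2 scale against 3.66 in number 2 and 5.40 and 4.46 in number 4. Without both number-3 libraries the median difference was 0.05, beside 0.07 for all genes, a choice made after seeing the data. Within number 4 the typical CD34 difference of a mitotic gene, taken as the median size over the 36, was 0.21 and 0.20, and the difference between the 2 CD34-negative libraries of that number was 0.19. In number 4, libraries of opposite CD34 groups thus lay about as far apart in these genes as 2 libraries of the same group. The same held over all tested genes, at 0.287 and 0.286 between CD34 groups and 0.283 between the 2 CD34-negative libraries.

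**Figure D2:**
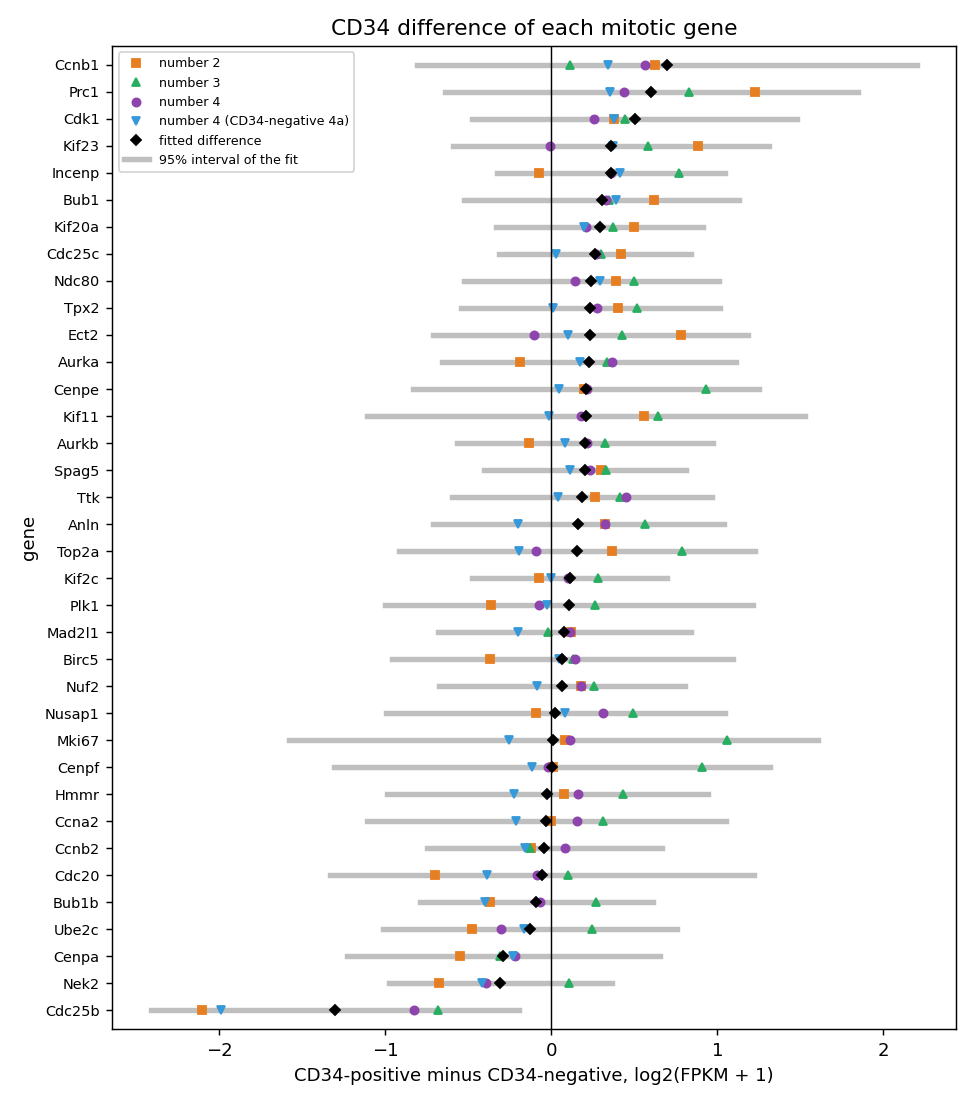
Difference of each gene between CD34-positive and CD34-negative cells on the log2(FPKM + 1) scale (horizontal axis), with the fitted value over all 7 libraries (diamond), its 95% interval (grey bar) and the 4 comparisons within equal numbers (coloured points). Nearly all intervals cross 0, Cdc25b lies to the left in all 4 comparisons, and the number-3 points lie mostly to the right.

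Among the cyclins, Cdk1 and its phosphatases, Cdc25b was the gene with the largest difference of the whole list. Cdc25b encodes a phosphatase that activates Cdk1 with cyclin B at the centrosome early in mitotic entry. It stood at 25.2, 78.6, 19.6 and 45.1 FPKM in CD34-negative replicates 1 to 4 and at 15.3, 17.5 and 10.6 FPKM in CD34-positive replicates 1 to 3. Every CD34-positive library was below every CD34-negative one, with the nearest values 17.5 and 19.6 FPKM. The means were 14.5 ± 3.52 FPKM (SD, n = 3) and 42.1 ± 26.7 FPKM (SD, n = 4), a log2 difference of -1.30 (SE 0.49, 95% interval -2.41 to -0.19) with an adjusted p of 0.735 in limma. With the replicate block the difference was -1.40 and the adjusted p was 0.0979. Within numbers it was -0.68 in number 3, -2.11 in number 2, and -0.83 and -1.99 in number 4. Without CD34-negative replicate 3 and with the block, Cdc25b passed in limma at an adjusted p of 0.0481. In that setting 137 of all 9134 tested genes passed as lower and 46 as higher, so the call was not particular to Cdc25b. Without CD34-negative replicate 2 and no block the Cdc25b difference was -0.94. The paralogue Cdc25c, which also activates Cdk1, had means of 7.31 ± 1.09 FPKM with CD34 and 5.92 ± 0.79 FPKM without it, and its groups overlapped. Within numbers Cdc25c was higher in CD34-positive cells, by 0.30 in number 3, 0.42 in number 2, and 0.27 and 0.03 in number 4.

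Markers of other cell types moved with the same comparison as Cdc25b. Of 15 tested erythroid genes 11 were lower in CD34-positive cells in all 4 equal-number comparisons, and of 13 tested mast cell genes 8 were, where the background was 18.9%. The summed FPKM of the erythroid genes was 317 to 481 in the CD34-positive and 357 to 1163 in the CD34-negative libraries, and that of the mast cell genes was 4023 to 5178 and 5927 to 23043. Slc4a1, Aqp1 and Car2 of the erythroid list were under 1 FPKM in every library. Of 8 tested neutrophil and monocyte genes 6 were higher in CD34-positive cells in all 4 comparisons, where the background was 21.4%. Another 10 of that list, Elane, Csf1r, Csf3r, S100a8 and S100a9 among them, were under 1 FPKM in every library. The part of these cell types in the Cdc25b values was not tested. In bulk samples fewer cells of a type and less RNA per cell cannot be told apart.

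Ccnb1, the cyclin whose destruction ends mitosis, was at 71.2, 64.6, 17.4 and 20.5 FPKM in CD34-negative replicates 1 to 4 and at 77.2, 100.2 and 26.2 FPKM in CD34-positive replicates 1 to 3. The groups overlap, and within each number the CD34-positive library was the higher. The fitted difference was 0.70 (SE 0.66), and 0.40 (SE 0.15) with the block, and neither passed in limma (adjusted p = 0.189 with the block). Cdk1, the kinase of mitotic entry, stood at 27.03, 49.6, 22.4 and 20.6 FPKM in CD34-negative and at 37.2, 64.7 and 27.04 FPKM in CD34-positive libraries. Its ratio within numbers was steady, at 1.37 in number 3, 1.30 in number 2, and 1.20 and 1.31 in number 4. The difference was 0.50 (SE 0.43), and 0.37 (SE 0.12, adjusted p = 0.154 in limma) with the block. Ccnb2, a second B-type cyclin, varied least of the cyclins, from 45.5 to 65.7 FPKM over the 7 libraries, with a mean of 54.3 FPKM in the CD34-positive group, which is given first in all pairs of means from here on, and 56.2 FPKM in the other. Ccna2, which partners Cdk2 in S phase and Cdk1 in G2, had means of 46.5 ± 16.8 and 48.7 ± 19.2 FPKM, with its lowest values, 21.6 and 27.1 FPKM, both in number 3.

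**Figure D3:**
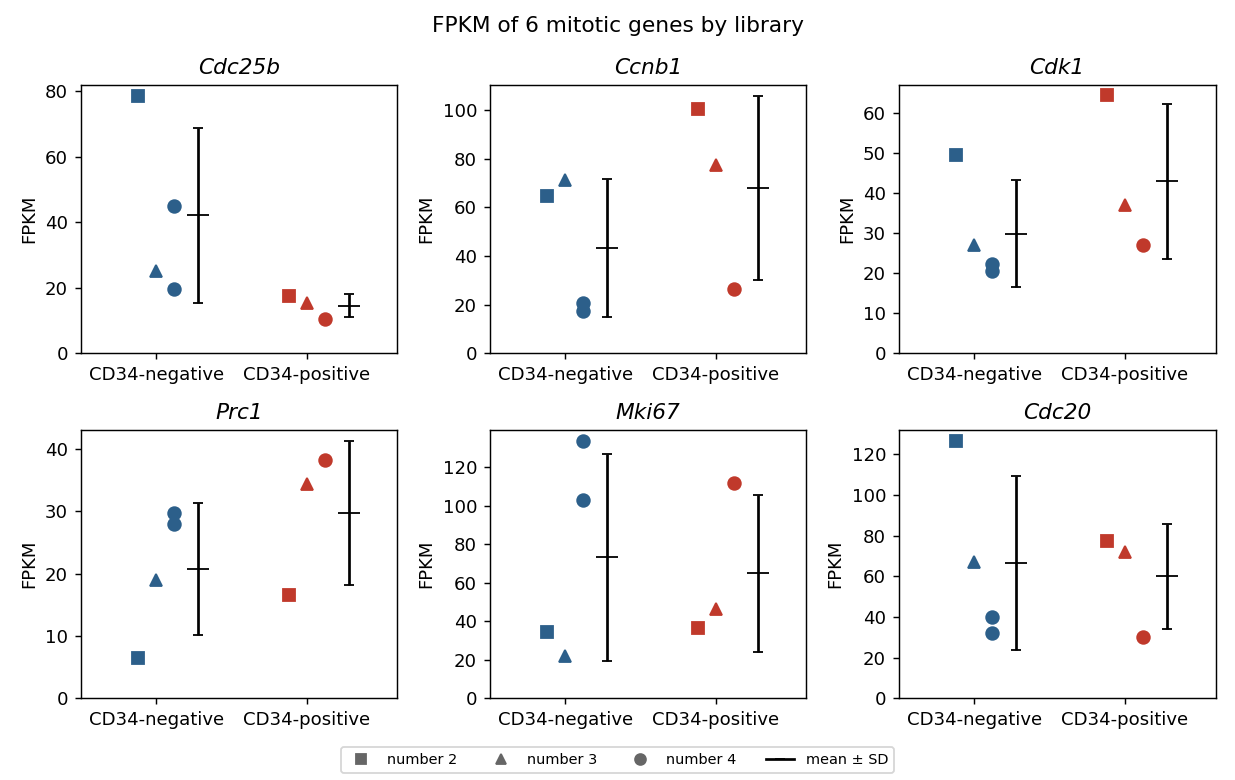
FPKM of Cdc25b, Ccnb1, Cdk1, Prc1, Mki67 and Cdc20 in each library (points, shape by description number) with the mean and SD of each CD34 group (black). Cdc25b is the one with groups that do not overlap, Cdk1, Ccnb1 and Prc1 are higher in the CD34-positive library of each number, and Mki67 and Cdc20 follow the number.

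Of the 6 mitotic kinases and chromosomal passenger genes, 5 had a fitted difference above 0 and 1 below 0, and none was under an unadjusted p of 0.05 in limma. Plk1, the polo-like kinase of centrosomes and kinetochores, had means of 46.5 ± 19.5 and 45.4 ± 27.5 FPKM. Birc5 averaged 72.8 ± 24.8 and 73.0 ± 38.7 FPKM, and its highest values, 131 and 101 FPKM, were both in number 2. Incenp, the scaffold that binds Aurora B, had the smallest unadjusted p of this role. It was at 36.9, 43.3, 41.4 and 39.9 FPKM in CD34-negative and at 63.6, 41.2 and 53.5 FPKM in CD34-positive libraries, so that 2 of 3 CD34-positive libraries lay above all others and the third among the CD34-negative ones. The difference was 0.36 (SE 0.30). Aurora A (Aurka, 30.9 and 27.4 FPKM) and Aurora B (Aurkb, 42.4 and 37.2 FPKM) had higher means in CD34-positive cells and overlapping groups. The kinase Nek2, which splits centrosomes, was the one with a fitted difference below 0, with means of 14.2 ± 1.37 against 18.3 ± 4.93 FPKM, with 25.2 FPKM in CD34-negative replicate 2.

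The 6 genes of the spindle checkpoint and the anaphase-promoting complex were divided evenly, with 3 fitted differences above 0, 3 below and a median of 0.01. Bub1, a checkpoint kinase at the kinetochore, was the most steady of these. It stood at 10.01, 9.41, 18.6 and 17.8 FPKM in CD34-negative and at 13.0, 15.0 and 23.7 FPKM in CD34-positive libraries, and was higher in CD34-positive cells by ratios of 1.30, 1.59, 1.27 and 1.33 within numbers. The difference was 0.30 (SE 0.36), and 0.44 (SE 0.13, adjusted p = 0.138 in limma) with the block. Cdc20, the activator of the anaphase-promoting complex, was at 67.2, 127, 32.1 and 39.8 FPKM in CD34-negative and at 72.1, 77.6 and 30.2 FPKM in CD34-positive libraries. Ube2c was at 62.6, 135, 86.4 and 78.4 FPKM and at 74.5, 96.3 and 69.9 FPKM. For both the highest value was that of CD34-negative replicate 2. Means of the checkpoint proteins Mad2l1 (38.7 and 36.2 FPKM) and Bub1b (31.8 and 34.4 FPKM), and of the kinase Ttk (8.69 and 7.67 FPKM), lay closer together than the SD within either group.

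At the centromere and kinetochore 5 of 6 genes had a fitted difference above 0, that of Cenpf being 0.0057 with a lower CD34-positive mean. Cenpa, the histone H3 variant that marks centromeres, was the one below 0, at 52.4, 115, 56.5 and 56.9 FPKM in CD34-negative and 42.0, 77.9 and 48.4 FPKM in CD34-positive libraries. It was lower within each number, by -0.31 in number 3, -0.55 in number 2, and -0.22 and -0.23 in number 4, although the groups overlap. Its fitted difference was -0.29 (SE 0.41), and -0.35 (SE 0.13, adjusted p = 0.192 in limma) with the block. Ndc80, which anchors microtubules to the kinetochore, was higher within each number, with means of 20.04 ± 4.70 and 17.1 ± 5.46 FPKM and a difference of 0.24 (SE 0.34). Nuf2, its partner in the same complex, averaged 26.2 and 25.4 FPKM, and the outer kinetochore proteins Cenpe and Cenpf averaged 16.4 and 14.9 FPKM and 10.1 and 10.8 FPKM. Spag5 (astrin), a spindle and kinetochore protein, had the smallest unadjusted p of this role, at 10.7, 11.4, 14.1 and 15.4 FPKM in CD34-negative and at 13.7, 14.3 and 16.8 FPKM in CD34-positive libraries. It was higher within each number, with overlapping groups and a difference of 0.20 (SE 0.27).

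Among kinesins and spindle assembly factors the largest difference was 0.24 (SE 0.34), for Tpx2, the Aurora A activator. Tpx2 was at 22.9, 18.3, 30.8 and 37.3 FPKM in CD34-negative and at 33.1, 24.5 and 37.5 FPKM in CD34-positive libraries, with overlapping groups. Kif11, the motor that pushes spindle poles apart, was at 17.9, 6.65, 27.1 and 31.1 FPKM in CD34-negative and at 28.5, 10.3 and 30.8 FPKM in CD34-positive libraries. Both number-2 libraries were the low ones. Its difference was 0.21 (SE 0.58), and 0.39 (SE 0.16, adjusted p = 0.225 in limma) with the block, and turned to -0.23 without CD34-negative replicate 2. Nusap1, which bundles spindle microtubules, averaged 22.5 and 21.97 FPKM. The spindle protein Hmmr averaged 14.6 and 15.4 FPKM, and Kif2c, a kinesin that takes microtubule ends apart, 16.04 and 14.8 FPKM.

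All 5 genes of the central spindle and cytokinesis had a fitted difference above 0, with a median of 0.29. None passed, and the groups overlapped for each. Prc1, which bundles the microtubules of the central spindle, was at 18.9, 6.504, 28.01 and 29.7 FPKM in CD34-negative and at 34.4, 16.6 and 38.3 FPKM in CD34-positive libraries. The CD34-positive library was the higher in each number, by ratios of 1.82, 2.55, 1.37 and 1.29. The difference was 0.60 (SE 0.55), and 0.78 (SE 0.18, adjusted p = 0.0951 in limma) with the block. Kif20a, a kinesin that Prc1 works with at the midzone, was at 16.6, 14.3, 20.6 and 20.8 FPKM in CD34-negative and at 21.9, 20.6 and 23.97 FPKM in CD34-positive libraries. The groups nearly separate, overlapping by less than 1 FPKM, and the difference was 0.29 (SE 0.27). Kif23, the kinesin of the centralspindlin complex, averaged 14.9 ± 4.02 and 12.3 ± 6.12 FPKM and was level in number 4 against CD34-negative replicate 3 (19.5 and 19.6 FPKM). Its difference was 0.36 (SE 0.42), and 0.51 (SE 0.19, adjusted p = 0.184 in limma) with the block. Ect2, the exchange factor that turns on the small GTPase RhoA at the cleavage site, averaged 13.8 and 12.3 FPKM, and Anln 9.21 and 8.44 FPKM.

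Top2a and Mki67 (Ki-67), both used as markers of proliferating cells, had overlapping groups. Top2a was at 76.8, 62.0, 142 and 153 FPKM in CD34-negative and at 133, 80.2 and 133 FPKM in CD34-positive libraries, a difference of 0.16 (SE 0.47). Mki67 was at 21.8, 34.3, 103 and 134 FPKM in CD34-negative and at 46.5, 36.4 and 112 FPKM in CD34-positive libraries, with means of 64.9 ± 40.9 and 73.2 ± 53.8 FPKM. For Mki67 the 3 high values were those of number 4, whichever the CD34 group, while for Top2a CD34-positive replicate 1, of number 3, was as high as the CD34-positive library of number 4.

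More of the mitotic genes differed by description number. The split of number 4 from numbers 2 and 3 was chosen after earlier results of these data showed the number-4 libraries apart. Its p-values are therefore not those of a comparison set beforehand. With the CD34 group as a covariate, 10 of 36 genes (27.8%, background 5.93%) were higher and 2 (5.56%, background 30.7%) were lower in number 4 than in numbers 2 and 3 in limma. Mki67 was highest, at 116 ± 15.7 FPKM (SD, n = 3) in number 4 and 34.8 ± 10.1 FPKM (SD, n = 4) in the others, a log2 difference of 1.80 (SE 0.25, adjusted p = 0.00240). The other higher genes were Cenpf (1.45) and Cenpe (1.09), large proteins of the outer kinetochore, Nusap1 (1.05), Hmmr (0.99), Kif23 (0.92), Top2a (0.79), Bub1 (0.79), Ttk (0.70) and Ndc80 (0.66). The lower genes were Ccnb1, at 21.4 ± 4.495 against 78.3 ± 15.5 FPKM (difference -1.76, SE 0.18, adjusted p = 6.55e-04), and Cdc20, at 34.0 ± 5.08 against 85.9 ± 27.5 FPKM (difference -1.32, SE 0.25, adjusted p = 0.00703). In 12 genes every number-4 library was above every other library (33.3%, background 10.6%), and in 5 every one was below (13.9%, background 35.4%), namely Ccnb1, Ccnb2, Plk1, Aurkb and Cdc20. Under an unadjusted p of 0.05 there were 16 higher (background 10.4%) and 5 lower (background 37.5%). The median difference of the 36 genes was 0.32, beside -0.29 over all genes, and 0.61 separated the 2 medians. The 12 genes that passed kept their direction under each of the 16 other settings tried, while 14 of the other 24 changed sign under at least 1. Scaling moved the median of all genes from -0.29 to as high as 0.49, and the median of the 36 genes stayed 0.35 to 0.78 above it under every setting. With quantile normalization 21 genes were higher and 1 lower, beside 16.5% and 15.96% of all genes, and with rescaling that left out ribosomal protein genes 16 were higher and 1 lower, beside 11.7% and 7.31%. When small RNA genes were left out as well, an alternative added later, 23 were higher and 1 lower, beside 31.7% and 7.37%. Cdc20 was the gene that no longer passed as lower under these 3 scalings, and Top2a, at an adjusted p of 0.0496, did not pass in limma under 10 of the 16 settings. Without CD34-positive replicate 3, 3 were higher and 1 lower, beside 0.756% and 10.9% of all genes. With the 2 CD34-negative libraries of number 4 averaged as 1, 6 were higher, beside 2.15% of all genes. Leaving out CD34-negative replicate 4 or CD34-positive replicate 2 also gave 6 higher, beside 1.87% and 3.18%. Without CD34-negative replicate 1 the lower genes were 5, beside 30.9% of all genes.

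Transcript length moved with the same differences. Lengths were taken as the longest protein-coding transcript of each symbol in GENCODE M21 and were found for all 36 genes and for 94.2% of tested genes. Over the 36 genes, Spearman's rho between length and the number-4 difference was 0.58, and over 8726 tested genes it was 0.53. These are descriptions across genes of the same libraries, and genes are not independent. Of the 12 longest transcripts (3887 bases or more) 10 were higher in number 4, and of the 12 shortest (2842 bases or less) 3 were. Between the CD34-positive and CD34-negative libraries of number 3, rho was 0.62 over the 36 genes and 0.36 over all genes. The largest differences there were those of Mki67 (1.06), Cenpe (0.93), Cenpf (0.91), Prc1 (0.83) and Top2a (0.79). Short transcripts rose there too: 10 of the 12 shortest were higher in the CD34-positive library (median 0.26), beside 11 of the 12 longest (median 0.54). In number 2 rho was 0.39 and 0.21, and all 12 of the longest transcripts were higher in the CD34-positive library against 4 of the 12 shortest. Within number 4 rho over the 36 genes was 0.04 against CD34-negative replicate 3 and -0.01 against CD34-negative replicate 4. Over all genes it was -0.04 and -0.01. The part of length in the CD34 differences of numbers 2 and 3 was not tested. Cdc25b, with a transcript of 3089 bases, lay in the middle of the range and was lower in all 4 comparisons. Among the 12 longest, Cdk1 (4375 bases) and Mad2l1 (7557 bases) were lower in number 4, by 0.78 and 0.40.

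**Figure D4:**
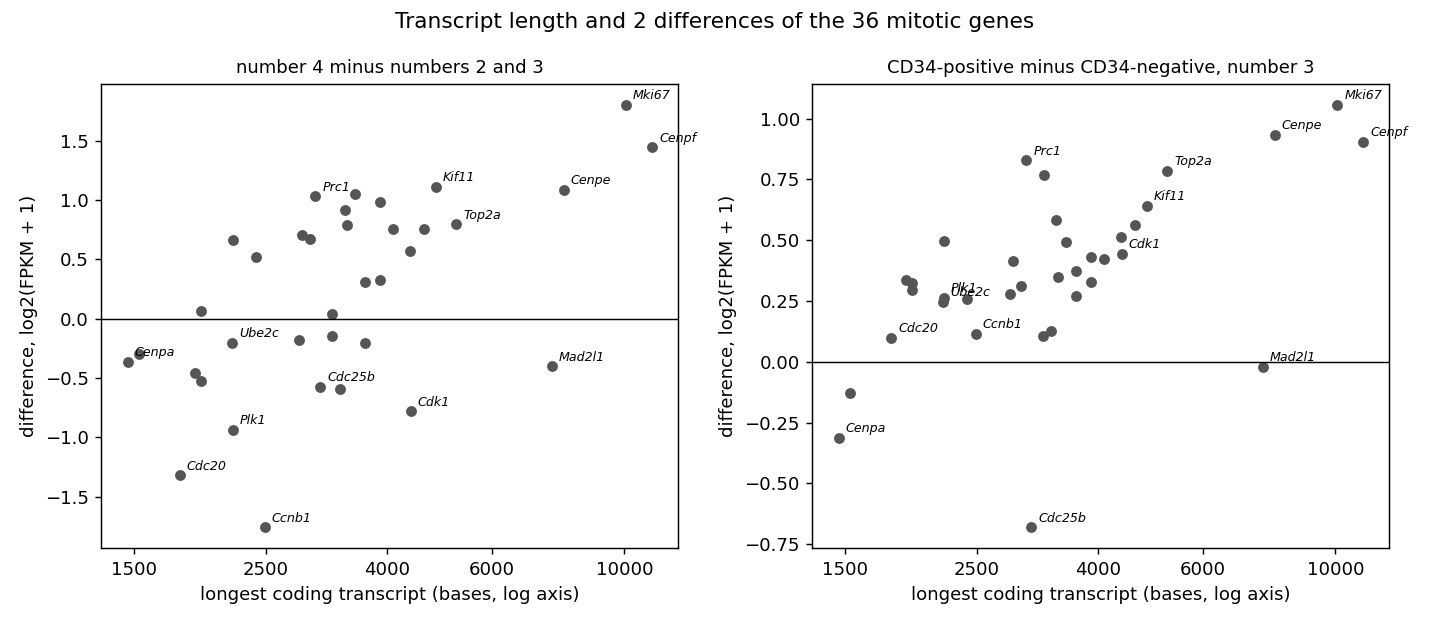
Length of the longest coding transcript in bases (horizontal, log axis) against the difference between number 4 and numbers 2 and 3 (left) and between the CD34-positive and CD34-negative libraries of number 3 (right), on the log2(FPKM + 1) scale; each point is 1 of the 36 genes. Long transcripts such as Mki67 and Cenpf lie high in both panels, and Cdc25b lies lowest in the right panel.

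None of the other cell cycle genes was shown to differ between the CD34 groups either. Of 108 tested further mitosis genes (kinetochore, condensin, cohesin, centrosome and spindle proteins) none passed in limma and the median difference was 0.16, with 0 genes under an unadjusted p of 0.05. The 3 with the smallest unadjusted p were Depdc1a (2.77 and 1.98 FPKM), Numa1 (44.8 and 32.1 FPKM) and the lamin Lmnb1 (121 and 87.1 FPKM), all 3 higher in CD34-positive cells in each equal-number comparison. The groups did not overlap for Depdc1a and overlapped for the other two. With the block 17 of these were higher and 0 lower under an unadjusted p of 0.05 (15.7% higher, background 12.8%). Of 15 subunits and partners of the anaphase-promoting complex none passed, and the median was 0.10. Anapc16 (13.1 and 18.7 FPKM), Anapc10 (4.12 and 2.92 FPKM) and Anapc11 (18.3 and 22.9 FPKM) had the smallest unadjusted p. Of 13 tested Cdk1 regulators none passed, with a median of 0.17 and with Chek1 (9.17 and 7.31 FPKM), Pkmyt1 (14.9 and 12.8 FPKM) and Ccnf (36.6 and 30.9 FPKM) first. Of 45 genes of DNA replication and the G1/S transition none passed, with a median of 0.16 and with Tyms (49.5 and 28.9 FPKM), Gins1 (24.5 and 18.2 FPKM) and Pole (10.8 and 8.39 FPKM) first.

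The 23 transcription factors and pocket proteins of the cell cycle had no member past the threshold in limma and a median of 0.10, and 1 was under an unadjusted p of 0.05, E2f8. E2f8, an atypical E2F that represses G1/S genes, was at 28.01, 27.9, 36.8 and 53.6 FPKM in CD34-negative and at 20.3, 14.2 and 19.3 FPKM in CD34-positive libraries. The groups do not overlap, and the difference was -0.96 (SE 0.34, adjusted p = 0.698, or 0.0940 with the block, both in limma). Of the 23, 5 were higher in all 4 equal-number comparisons (Lin9, Rbbp4, Rbl1, E2f7 and Nfya; background 21.4%) and 5 were lower (E2f8, E2f2, Rb1, E2f4 and E2f6; background 18.9%). E2f2, an activator E2F, was lower in all 4 equal-number comparisons (10.4 ± 3.75 and 18.6 ± 11.2 FPKM), as was the retinoblastoma gene Rb1 (6.73 and 14.8 FPKM), both with overlapping groups. Foxm1, the forkhead factor that drives G2/M genes, was at 9.68 ± 2.34 and 10.1 ± 2.27 FPKM, and Mybl2 (B-Myb), the other activator of this programme, at 21.5 ± 13.8 and 20.5 ± 17.0 FPKM. Foxm1, Mybl2 and the genes named by their 4 comparisons alone were chosen after their values were seen.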

How the data were processed

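RNA was sequenced in 7 EML libraries, and the authors deposited 1 table with an FPKM value for each gene symbol and library. The submitters' processing notes name TopHat2, TopHat and Cuffdiff and the builds mm9 and mm10, with no versions or roles. The sources used here give neither the annotation nor the use of strand. Since no label calls the replicates separate cultures, the spread behind each p-value is that of these libraries and may be technical. Left out were 105 symbols listed more than once (322 rows, no mitotic gene). The 9259 genes with 1 FPKM or more in 3 or more libraries were tested on log2(FPKM + 1) with limma (version 3.58.1, R 4.3.3, trended prior). Tests were two-sided, with p-values adjusted by Benjamini-Hochberg over all 9259 and a threshold of 0.05. The fitting was tested on simulated data.

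Deviations from the group means correlated at 0.70, 0.92, 0.82 and 0.85 within equal description numbers, all above 0.1, so these numbers were treated as pairing the libraries. Unlike numbers gave -0.86 to 0.37. Between numbers 2 and 3 the values were 0.37 and 0.22, also above 0.1, so that limit alone does not mark the pairs. The members and lists were chosen with earlier results of these data known. All members are given by value, those of highest mean and smallest unadjusted p in each role in more detail, with the 3 of smallest unadjusted p in each other cell cycle list and Cd34. Members with an unadjusted p under 0.05 in the block were added after their values were seen. The alternatives were another pseudocount, other filters and scalings, replicate blocks and left-out libraries.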

Additional observations from a re-analysis of the deposited data

Results flagged for a closer look

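In 3 of the 36 genes, CD34-negative replicate 2 stood well above the other 3 libraries of its group. The gap to the nearest library, on log2(FPKM + 1), was 0.840 of the group's whole range for Aurka, 0.915 for Birc5 and 0.894 for Cenpa, each above Dixon's critical value for 4 libraries. Chance marks about 1 in 20 groups, and 5.95% of the 9259 tested genes were marked. The CD34-positive library of the same number was the highest of its group for these genes too, at 41.0 FPKM for Aurka, 101 FPKM for Birc5 and 77.9 FPKM for Cenpa.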

How the results depend on the processing

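Fragment totals are unknown, and with 3 against 4 libraries small differences could not be shown. No mitotic gene passed between the CD34 groups under any setting but 1. With the replicate block and without CD34-negative replicate 3, 1 gene (Cdc25b) was lower, beside 137 of all 9134 tested genes. The median CD34 difference rose to 0.33 with the libraries numbered 2 and 3 only (added after seeing the data), and to 0.33 with the block without CD34-positive replicate 3. It ranged from 0.03 to 0.23 over the scalings and, without the block, from 0.06 to 0.29 when 1 library was left out. With the block it was 0.08 to 0.33 when 1 library was left out. The block by description number gave 0.25 and changed no call. Of 36 fitted CD34 differences, 20 changed sign under at least 1 of 27 settings, all of them at most 0.24 in size. The fitted difference of Cenpf, 0.0057, kept its sign under 17 of the 27 settings. Other fitted CD34 differences of the 36 are given in the text only for genes of smallest p in each role or under 0.05 in the block. That choice was made with values known. Of those, Top2a was -0.11 with quantile normalization and -0.094 without both number-3 libraries, and -0.075 to 0.40 when 1 library was left out. Kif11 was -0.0081 without both number-3 libraries and -0.23 to 0.69 when 1 library was left out. For number 4 against numbers 2 and 3, the genes called higher and lower and the median difference were 21, 1 and 0.81 with quantile normalization, 16, 1 and 0.84 with rescaling without ribosomal protein genes, and 23, 1 and 1.17 with rescaling without ribosomal protein and small RNA genes (added after seeing the data). With median-ratio scaling 18 were higher, beside 14.7% of all genes, and the median was 0.62. With CD34-negative replicates 3 and 4 averaged, 6 were higher, beside 2.15% of all genes. Leaving out 1 library gave 3 to 14 higher and 1 to 5 lower, beside 0.756% to 10.4% and 10.9% to 30.9% of all genes. The causes were not tested.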
